A study of Mus musculus with 32 samples.

Results

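The response of epididymal white adipose tissue (eWAT) to corticosterone (cort) was compared between mice on a normal-protein diet (NPD) and mice on a high-protein diet (HPD). The 16 eWAT libraries among the 32 libraries of the series were used, grouped by their labels. Each diet had 4 libraries from vehicle-treated mice (Veh NPD, Veh HPD) and 4 from cort-treated mice (Cort NPD, Cort HPD). Where 4 group means are given in a row, they follow that order. All were from male C57BL/6 mice aged 10 weeks that had received their treatment and diet for 7 days. Cort, the main glucocorticoid of rodents, or its ethanol vehicle (veh) was given in the drinking water, and the NPD and HPD supplied 20% and 60% of energy as protein. The HPD held less corn starch in exchange for protein, so that a change in protein and a change in carbohydrate cannot be told apart. The measure throughout is the interaction, that is the log2 fold change with cort on the HPD minus the log2 fold change with cort on the NPD. A positive interaction means that the level of a gene under cort, relative to veh, was higher on the HPD than on the NPD. A response was called weakened where both diets gave the same sign and the HPD the smaller size, strengthened where the HPD gave the larger size, and reversed where the signs differed.

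Cort binds the glucocorticoid receptor, a transcription factor that activates many metabolic genes and represses inflammatory and antigen presentation genes. Fat tissue holds adipocytes together with macrophages, dendritic cells, progenitors and vessels. MHC class II molecules display peptides to T cells and are made mainly by dendritic cells, B cells and macrophages, under control of the coactivator Ciita. Because whole tissue was sequenced, fewer cells of a type and less RNA per cell cannot be told apart in any of the values below.

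The total count per eWAT library lay between 9794683 and 18057936 (median 14486945.5), and the 10 adipocyte markers summed to between 31740 and 55700 CPM (counts scaled to a common library total) in a library. Cort HPD replicate 4 stood apart, with a sum of 24 epididymis and testis markers of 32020 CPM against 5.36 to 24.4 CPM in the other libraries, and a median correlation with the other libraries of 0.892 against 0.924 to 0.934. Values without it are given below beside the results that it moved most. As a check of the treatment labels, Fkbp5, a classical target of the receptor, rose by 1.74 (log2) on the NPD (edgeR's quasi-likelihood test, adjusted p = 0.016) and had 0.60 on the HPD (adjusted p = 0.45). The values for Tsc22d3 were 0.81 and 0.35, those for Per1 were 0.05 and -0.75, and those for the receptor gene Nr3c1 were -0.29 and -0.27, none of which passed the test on either diet. Zbtb16, a further target of the receptor, had -0.02 on the NPD and fell by 1.24 on the HPD (adjusted p = 0.043). The labels do not say which libraries came from separate animals, so that p-values measure the spread between these samples.

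Of 15187 genes tested, 2 had an interaction with an adjusted p under 0.05 (0.0132%), H2-Ab1 with a positive and Syn2 with a negative sign (0.00658% each). Cort changed H2-Ab1 and Syn2 on both diets, in each case by less on the HPD. DESeq2 called 14 genes and limma voom 0, with 831 at an unadjusted p under 0.05 by limma voom. Without Cort HPD replicate 4, edgeR called 0, with 720 at an unadjusted p under 0.05 (4.62%). At an unadjusted p under 0.05 there were 784 genes (5.16%), of which 464 were positive (3.06%) and 320 negative (2.11%), where 5% of the genes tested is 759. By their fitted responses, 178 of the 784 were weakened, 92 strengthened and 514 reversed. The weakened genes were 115 with lower and 63 with higher levels under cort, and 300 of the reversed genes were lower with cort on the NPD and higher on the HPD. Of all 15187 genes tested, 5397 were weakened, 4907 strengthened and 4883 reversed. The class rests on fitted signs without a threshold, and picking genes on their interaction itself favours opposite signs. The share of reversed genes among the 784 is thus no sign that the diet mostly reversed responses. Of the 784 genes, 71 had no more than 3 counts in every library of at least 1 group, where the fitted size is uncertain.

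The cort response itself was called for 1212 genes on the NPD (7.98%) and for 925 on the HPD (6.09%), or 581 on the HPD without Veh HPD replicate 1. On both diets 543 were called, and 305 of these had the smaller response on the HPD and 238 the larger, with no opposite sign. For 669 genes called on the NPD and not on the HPD, the interaction was called for none, and its unadjusted p was under 0.05 for 181. For 382 genes called on the HPD and not on the NPD (352 of them strengthened), it was called for 0 and its unadjusted p was under 0.05 for 95. Beside the 5.16% of all genes, nothing can be read from these shares, since both sets were picked on responses that enter the interaction. Taking the mean cort effect over both diets, 2360 genes were called (15.5%), which picks genes without favouring a diet. The 1125 genes that fell (7.41%) had a median log2 response of -0.81 on the NPD and -0.70 on the HPD, and 61.2% of them had the smaller response on the HPD. The 1235 genes that rose (8.13%) had medians of 0.54 and 0.52, and 52.4% had the smaller response on the HPD, beside 51.5% of all genes tested. Between the diets, 9 genes were called in veh-treated mice (0.0593%) and 74 in cort-treated mice (0.487%). The median interaction was 0.11 for the genes that fell and -0.02 for those that rose. The spread between libraries sets how small an interaction could be seen: its median standard error (SE) was 0.38 over all genes and 0.27 over the 2360 genes. The 95% confidence interval lay within 1 log2 unit of 0 for 6900 genes (45.4%) and for 1477 of the 2360 (62.6%), whereas its half-width exceeded 1 for 6070 genes (40.0%).

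Most MHC class II genes fell with cort on both diets, and for H2-Ab1 the fall was smaller on the HPD by the adjusted test. Of the 13 genes listed for MHC class II presentation, 11 were tested, of which 9 fell with cort on the NPD, beside 3.93% of all genes tested, and 6 on the HPD, beside 2.63%. The interaction was positive for 10 of 11, beside 52.1% of all genes tested, and called for 1. It had an unadjusted p under 0.05 for 8, all positive, beside 3.06% of all genes tested. The median log2 response was -3.00 on the NPD and -2.30 on the HPD, and the median interaction was 1.28, beside 0.02 for all genes tested. With 1 library left out in turn, the median ranged from 0.957 to 1.42, and the lowest value came without Cort HPD replicate 4. The mean level was higher in Cort HPD than in Cort NPD for 10 of the 11 and lower in Veh HPD than in Veh NPD for 11. The libraries of the cort diet groups did not overlap for 2 of the 11, beside 6.66% of all genes tested, and those of the veh diet groups for 1, beside 4.28%. Without Cort HPD replicate 4, 6 of the 11 genes had an unadjusted p under 0.05 with a positive sign, beside 2.57% of all genes tested in that fit.

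The promoters of 3 of these genes are shown because MHC class II genes share a conserved promoter module of S, X and Y boxes, to which the complex that recruits Ciita binds. The windows run from 250 bases before to 50 bases after the gene start (RefSeq, GRCm38.p6) and are read 5′ to 3′ on the strand of the gene. They lie at chr17:34287774-34288073 on the minus strand for H2-Aa, chr17:34305617-34305916 on the plus strand for H2-Eb1 and chr17:34152941-34153240 on the plus strand for H2-DMb1. Capitals mark TGATTGG, the core letters of the Y box, an inverted CCAAT box.
H2-Aa: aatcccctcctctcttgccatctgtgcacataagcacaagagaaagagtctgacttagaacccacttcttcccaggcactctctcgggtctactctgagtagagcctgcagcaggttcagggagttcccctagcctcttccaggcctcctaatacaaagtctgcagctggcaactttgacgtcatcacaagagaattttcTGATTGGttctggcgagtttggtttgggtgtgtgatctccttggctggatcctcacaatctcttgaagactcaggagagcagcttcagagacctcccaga
H2-Eb1: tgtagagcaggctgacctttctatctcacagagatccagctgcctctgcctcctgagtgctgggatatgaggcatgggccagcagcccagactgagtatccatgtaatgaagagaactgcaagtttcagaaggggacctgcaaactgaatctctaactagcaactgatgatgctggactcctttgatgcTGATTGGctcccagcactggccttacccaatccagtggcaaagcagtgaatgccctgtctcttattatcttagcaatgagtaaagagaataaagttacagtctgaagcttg
H2-DMb1: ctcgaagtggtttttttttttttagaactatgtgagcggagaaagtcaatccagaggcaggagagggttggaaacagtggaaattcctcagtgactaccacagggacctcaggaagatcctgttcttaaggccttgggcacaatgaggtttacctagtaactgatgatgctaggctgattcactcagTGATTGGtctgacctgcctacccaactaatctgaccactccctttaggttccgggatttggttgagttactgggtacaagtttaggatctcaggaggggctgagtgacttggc
The capitals begin 50, 61 and 63 bases before the start of H2-Aa, H2-Eb1 and H2-DMb1. On either strand, TGATTGG was found in 2568 of 32851 promoter windows (7.82%) and in 5 of the 8 tested MHC class II members matched in the RefSeq table, also including H2-DMb2 and H2-Ob. AGAACA, the letters of 1 arm of the palindrome that the glucocorticoid receptor binds, was found in 18.97% of windows and in 4 of these 8 members, among them H2-DMb1 and Ctss. A match of letters is a description of the sequence and does not show binding.

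H2-Ab1 (ENSMUSG00000073421, GRCm38 chr17:34257689-34269419, plus strand) encodes the beta chain of the class II molecule I-A. Its level was 406, 377, 346 and 347 CPM in the 4 Veh NPD libraries and 268, 269, 367 and 178 CPM in the Veh HPD libraries. Under cort it was 15.8, 21.8, 15.9 and 18.5 CPM on the NPD and 31.8, 30.2, 39.4 and 37.6 CPM on the HPD. Every Cort HPD library lay above every Cort NPD library, all cort libraries lay below all veh libraries, and the veh groups overlapped. H2-Ab1 fell by 4.36 on the log2 scale (SE 0.18), or 20.5-fold, on the NPD and fell by 2.96 (SE 0.17), or 7.77-fold, on the HPD. The interaction was 1.40 (SE 0.23, 95% confidence interval 0.93 to 1.86), with an adjusted p of 0.024 by edgeR's quasi-likelihood test. Between the diets, H2-Ab1 was 0.95 higher (log2) on the HPD under cort (adjusted p = 0.0035) and -0.45 under veh (adjusted p = 0.38). Leaving out each library in turn gave an interaction of 1.24 to 1.58, and the call was kept in 8 of 16 fits. It was lost, at adjusted p from 0.0562 to 0.121, without Veh NPD replicate 1, Veh HPD replicates 1 and 2, Cort NPD replicates 1, 3 and 4, or Cort HPD replicates 3 and 4.

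H2-Aa encodes the alpha chain that pairs with H2-Ab1. It stood at 552, 553, 439.6 and 464 CPM in Veh NPD and at 339.8, 364, 538 and 334 CPM in Veh HPD. Its level under cort was 26.1, 26.7, 15.2 and 31.4 CPM on the NPD and 34.0, 41.6, 55.2 and 58.7 CPM on the HPD. The cort groups did not overlap and the veh groups did, as for H2-Ab1. The interaction of H2-Aa was 1.28 (SE 0.29, 0.68 to 1.89) and did not pass the adjusted test (adjusted p = 0.40), although DESeq2 called it. H2-Eb1, the beta chain of I-E, averaged 431 ± 30.3, 311 ± 92.9, 18.6 ± 4.14 and 34.4 ± 15.4 CPM (SD, n = 4) in Veh NPD, in Veh HPD, in Cort NPD and in Cort HPD, and its interaction was 1.37 (SE 0.40). Its span overlaps Gm20513 on the other strand. The invariant chain Cd74, which guides class II molecules to the peptide loading compartment, averaged 312 ± 41.1, 275 ± 51.8, 19.2 ± 5.91 and 41.6 ± 19.8 CPM in the same order, with an interaction of 1.30 (SE 0.42). For H2-Eb1 and Cd74 the lowest Cort HPD library lay within the range of the Cort NPD libraries. Without Cort HPD replicate 4 their interactions were 1.09 and 0.957.

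The peptide exchange factor H2-DM is formed by H2-DMa with H2-DMb1 or H2-DMb2. H2-DMa averaged 41.2 ± 8.60, 28.6 ± 8.94, 5.19 ± 1.37 and 7.92 ± 4.72 CPM in the same order, and its interaction of 1.16 (SE 0.43) became 0.65 without Cort HPD replicate 4, its highest library under cort at 14.9 CPM. H2-DMb1 had an interaction of 0.97 (SE 0.36), or 0.70 without that library. H2-DMb2 was at 0.968, 0 and 1.73 CPM in the first 3 Cort HPD libraries and at 22.4 CPM in the fourth, and its interaction went from 3.87 (SE 1.66) to 1.10 without it. H2-DMb1 and H2-DMb2 are close copies between which reads may be divided unevenly. Ciita was low throughout, at 0.620 to 5.96 CPM in Veh NPD, 0.259 to 2.66 in Veh HPD, 0 to 0.291 in Cort NPD and 0 to 0.399 in Cort HPD. It fell by 5.43 (SE 1.28) on the NPD and had -3.02 (SE 1.14) on the HPD, with an interaction of 2.41 (SE 1.65) whose interval, -0.98 to 5.80, held 0. The thiol reductase Ifi30 fell by 0.57 on the NPD and had 0.01 on the HPD (interaction 0.58, SE 0.20). The protease Ctss, which degrades the invariant chain, had an interaction of 0.28 (SE 0.21), and H2-Ob was the member with a negative value, -0.95 (SE 1.44).

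**Figure D1:**
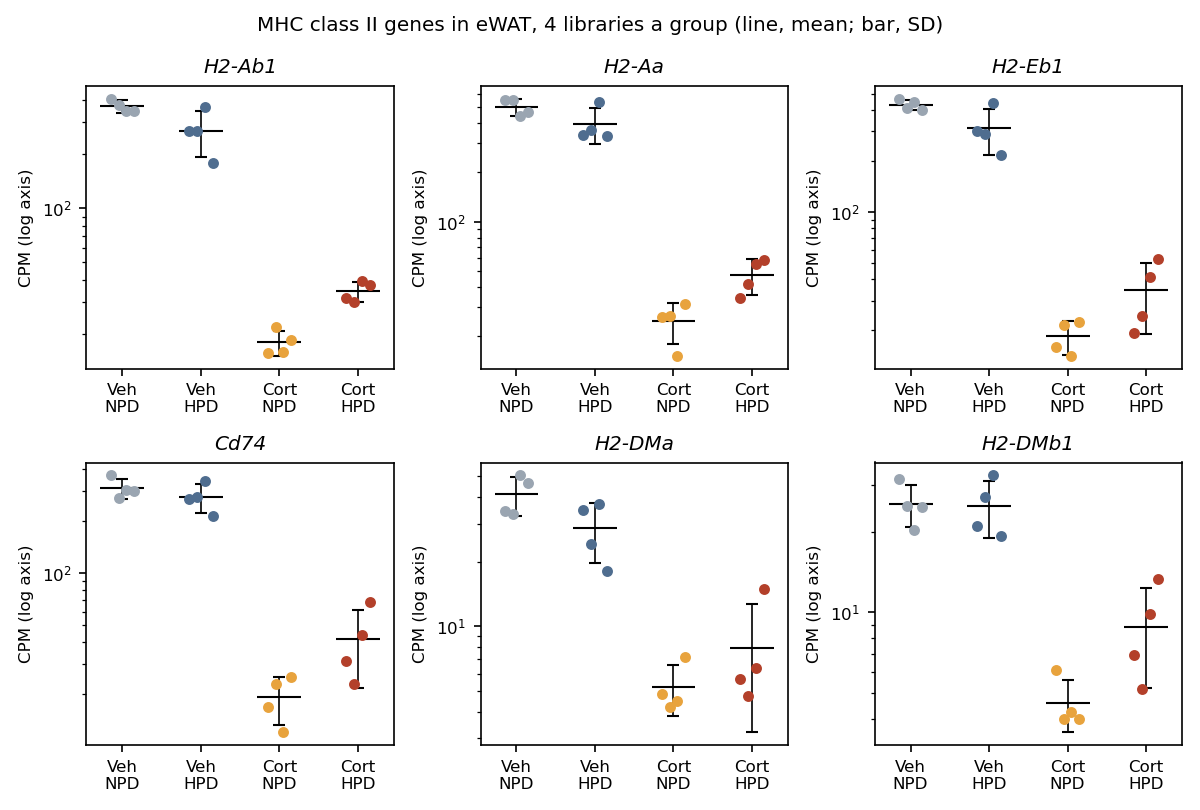
Level in CPM (log axis) of 6 MHC class II genes in each of the 16 eWAT libraries, by group, with the mean as a line and the SD as a bar. All 8 cort libraries lie below all 8 veh libraries in each panel, and for H2-Ab1 and H2-Aa every Cort HPD library lies above every Cort NPD library.

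Marker sums of the cells that carry MHC class II were compared beside these values. The 7 dendritic cell markers summed to 70.5 to 92.0 CPM in Cort NPD and 74.4 to 110.2 CPM in Cort HPD, and the 10 macrophage markers to 1167 to 1421 and 1295 to 1776 CPM. The 9 B cell markers summed to 173 to 380.0 CPM in Cort NPD and 173 to 343 CPM in Cort HPD, and none of these markers was at 0 in all libraries. The Cort diet groups overlapped in each of these sums, and the part of these cells in the MHC class II values was not tested.

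The other immune lists had smaller medians, which for lymphocyte and chemokine genes did not keep their sign. Of 14 tested markers of T, NK and B lymphocytes, 8 had a positive interaction (57.1%), beside 52.1% of all genes tested. Their median was 0.355, or -0.00047 without Cort HPD replicate 4. Of 26 chemokines and cytokines, 14 had a positive interaction (53.8%), near the share of all genes. Their median was 0.102, or -0.0792 without Veh NPD replicate 1 and 0.403 without Cort NPD replicate 4. Of 18 tested genes of MHC class I presentation and the immunoproteasome, 16 had a positive interaction, beside 52.1% of all genes tested, with a median of 0.32. At an unadjusted p under 0.05 there were 2, both positive, beside 3.06%. They were H2-Q7, at 7.13 ± 1.48 CPM in Cort NPD and 15.2 ± 2.83 CPM in Cort HPD (interaction 1.48, SE 0.37), and H2-K1, with an interaction of 0.44 (SE 0.20). H2-Q7 belongs to a family of near-identical genes, so its count is uncertain. Of 34 interferon-stimulated genes, 25 had a positive interaction, beside 52.1% of all genes tested (median 0.35, or 0.602 without Veh HPD replicate 1). At an unadjusted p under 0.05 there were 5 positive and 2 negative genes, beside 3.06% and 2.11% of all genes tested. Without Cort HPD replicate 4 these counts were 4 and 1. Gbp2, an interferon-induced GTPase, fell by 1.16 on the NPD (adjusted p = 6.0e-05) and had -0.26 on the HPD. Irf9, the DNA-binding part of the interferon-activated complex ISGF3, read 13.2, 22.8, 17.5 and 12.3 CPM in Cort NPD and 30.9, 34.6, 33.1 and 30.1 CPM in Cort HPD, where the groups did not overlap. Its interaction was 0.79 (SE 0.28), and that of the GTPase Iigp1 was 1.16 (SE 0.43). Ifngr1, the receptor of interferon gamma, had the opposite sign at -0.60 (SE 0.20).

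Several phagocyte genes fell on the NPD. Of 26 tested genes of phagocytosis and Fc receptors, 9 fell and 1 rose with cort on the NPD, beside 3.93% and 4.05% of all genes tested, and 2 fell on the HPD, beside 2.63%. A positive interaction was found for 21, beside 52.1% of all genes tested, with a median of 0.30 (0.455 without Cort NPD replicate 4). At an unadjusted p under 0.05 there were 5 positive genes and 1 negative gene, beside 3.06% and 2.11% of all genes tested. Without Cort HPD replicate 4 there were 3 and 0. The immune GTPase Rac2 fell by 1.37 on the NPD and had -0.53 on the HPD, and the adaptor Tyrobp fell by 0.59 on the NPD and had -0.08 on the HPD. The Fc receptor chain Fcer1g fell by 0.39 on the NPD and had 0.07 on the HPD. The chemokine Cxcl9 fell by 2.60 on the NPD and fell by 1.49 on the HPD (interaction 1.11, SE 0.35). The macrophage product Retnla fell by 2.91 on the NPD and fell by 2.17 on the HPD (interaction 0.75, SE 0.24). Of 19 complement genes, 9 fell on the NPD and 8 on the HPD, beside 3.93% and 2.63% of all genes tested, and the median interaction was 0.17 (0.0999 without Veh HPD replicate 4). Complement factor Cfb fell by 1.12 on the NPD and fell by 0.51 on the HPD (interaction 0.61, SE 0.20). No gene of these lists passed the adjusted interaction test.

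Many matrix genes also fell on both diets. Among 34 tested genes of the extracellular matrix, 17 fell and 2 rose with cort on the NPD, beside 3.93% and 4.05% of all genes tested, and 11 fell and 3 rose on the HPD, beside 2.63% and 3.46%. The interaction was positive for 27, beside 52.1% of all genes tested. Its median of 0.275 fell to 0.0601 without Veh HPD replicate 4, 0.111 without Veh NPD replicate 3 and 0.178 without Cort HPD replicate 2. The gelatinase Mmp9 fell by 2.20 on the NPD and had -0.87 on the HPD (adjusted p = 0.051), with an interaction of 1.33 (SE 0.39). The small proteoglycan Lum had an interaction of 0.69 (SE 0.31), and the gelatinase Mmp2 had 0.80 (SE 0.38).

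Syn2 carried the called negative interaction. Syn2 (ENSMUSG00000009394, GRCm38 chr6:115134902-115282006, plus strand) encodes synapsin II, a protein best known from synaptic vesicles. Its level was 9.88, 12.7, 9.95 and 11.6 CPM in Veh NPD and 15.3, 20.7, 13.4 and 16.7 CPM in Veh HPD. Under cort it was 53.1, 49.2, 63.3 and 58.0 CPM on the NPD and 38.0, 33, 35.4 and 31.2 CPM on the HPD. No pair of the 4 groups overlapped, with the HPD above the NPD under veh and below it under cort. Cort raised Syn2 by 2.34 (log2, SE 0.16), or 5.06-fold, on the NPD and by 1.06 (SE 0.16), or 2.08-fold, on the HPD. The interaction was -1.28 (SE 0.22, -1.74 to -0.82, adjusted p = 0.033 by edgeR's quasi-likelihood test). It ranged from -1.37 to -1.15 with 1 library left out, and the call was kept in 4 of 16 fits, those without Veh NPD replicate 2, Veh HPD replicate 3, Cort NPD replicate 2 or Cort HPD replicate 1. In the other 12 fits the adjusted p was 0.0505 to 0.185.

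The gene Timp4, an inhibitor of metalloproteinases, lies within Syn2 on the opposite strand, and the sources used here do not state whether reads were counted by strand. Timp4 averaged 371 ± 85.6, 438 ± 73.7, 1040.0 ± 88.1 and 1020.5 ± 79.2 CPM in the order of groups given above. It rose on both diets, by 1.49 (SE 0.14) and 1.22 (SE 0.14), and its interaction was -0.27 (SE 0.20, -0.68 to 0.15). Its level was far above that of Syn2 in every group, and its cort groups overlapped while those of Syn2 did not. The part of Timp4 reads in the Syn2 count was not tested.

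The 10 genes with the next smallest p among negative interactions all had higher fitted levels with cort on the NPD, and 8 of them had lower fitted levels with cort on the HPD. Nothing can be read from these signs, since picking on a negative interaction favours a rise on the NPD and a fall on the HPD. These 10 genes and the 10 positive genes below were taken among genes with an unadjusted p under 0.05 and a mean of at least 2 CPM. They also had to keep their sign in all 16 fits with 1 library left out, which left 284 negative and 379 positive genes. None passed the adjusted test, and all 20 kept an unadjusted p under 0.05 without Cort HPD replicate 4. Prlr, the prolactin receptor, read 37.4, 37.2, 30.2 and 42.7 CPM in Veh NPD and 70.6, 65.5, 56.9 and 113 CPM in Veh HPD. Its levels in Cort NPD were 66.0, 61.1, 69.0 and 68.0 CPM and in Cort HPD 68.1, 80.0, 70.1 and 61.1 CPM. Only Veh NPD stood apart from the other groups. Prlr rose by 0.84 (SE 0.16, adjusted p = 0.0013) on the NPD and had -0.13 (SE 0.16) on the HPD. Its interaction was -0.97 (SE 0.23), or -1.09 to -0.72 with 1 library left out. In veh-treated mice Prlr was higher on the HPD by 1.05 (adjusted p = 0.0038 by edgeR's quasi-likelihood test).

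Alas1, the rate-limiting enzyme of heme synthesis outside red cells, averaged 122 ± 19.2, 213 ± 87.8, 259 ± 17.2 and 216 ± 27.6 CPM in that order of groups. It rose by 1.09 on the NPD and had 0.02 on the HPD (interaction -1.06, SE 0.29, or -1.26 to -0.77 with 1 library left out). Cept1, an enzyme that makes phosphatidylcholine and phosphatidylethanolamine, read 136, 122, 120.2 and 152 CPM in Cort NPD and 84.6, 95.3, 98.8 and 90.6 CPM in Cort HPD, with no overlap. It rose by 0.91 on the NPD and had 0.18 on the HPD (interaction -0.73, SE 0.18), and its span overlaps Dennd2d and Dram2. Pik3r1, the regulatory subunit of phosphoinositide 3-kinase in insulin signalling, averaged 141 ± 30.5, 226 ± 57.1, 199.7 ± 44.0 and 151 ± 18.1 CPM in the same order, with 0.50 on the NPD, -0.59 on the HPD and an interaction of -1.09 (SE 0.26). The veh groups of Pik3r1 did not overlap.

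Klf9, a transcription factor induced by glucocorticoids, had 0.44 on the NPD and -0.40 on the HPD (interaction -0.83, SE 0.22). Usp1, a ubiquitin protease of DNA repair, rose by 0.54 on the NPD and had -0.25 on the HPD (interaction -0.78, SE 0.18). Abcb1b, a drug efflux pump, had an interaction of -1.13 (SE 0.33), and Cdc73, a subunit of the PAF1 transcription complex, had -0.64 (SE 0.17). The remaining members were Txlng at -0.99 (SE 0.28) and BC002059 at -1.36 (SE 0.38). Cdc73, Txlng, Abcb1b, Prlr, Alas1, Pik3r1 and Klf9 have spans that overlap other annotated genes, so that their counts could be divided between genes, and so do Slc25a37, Alas2, Prdm16 and Atpif1 among the genes below.

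**Figure D2:**
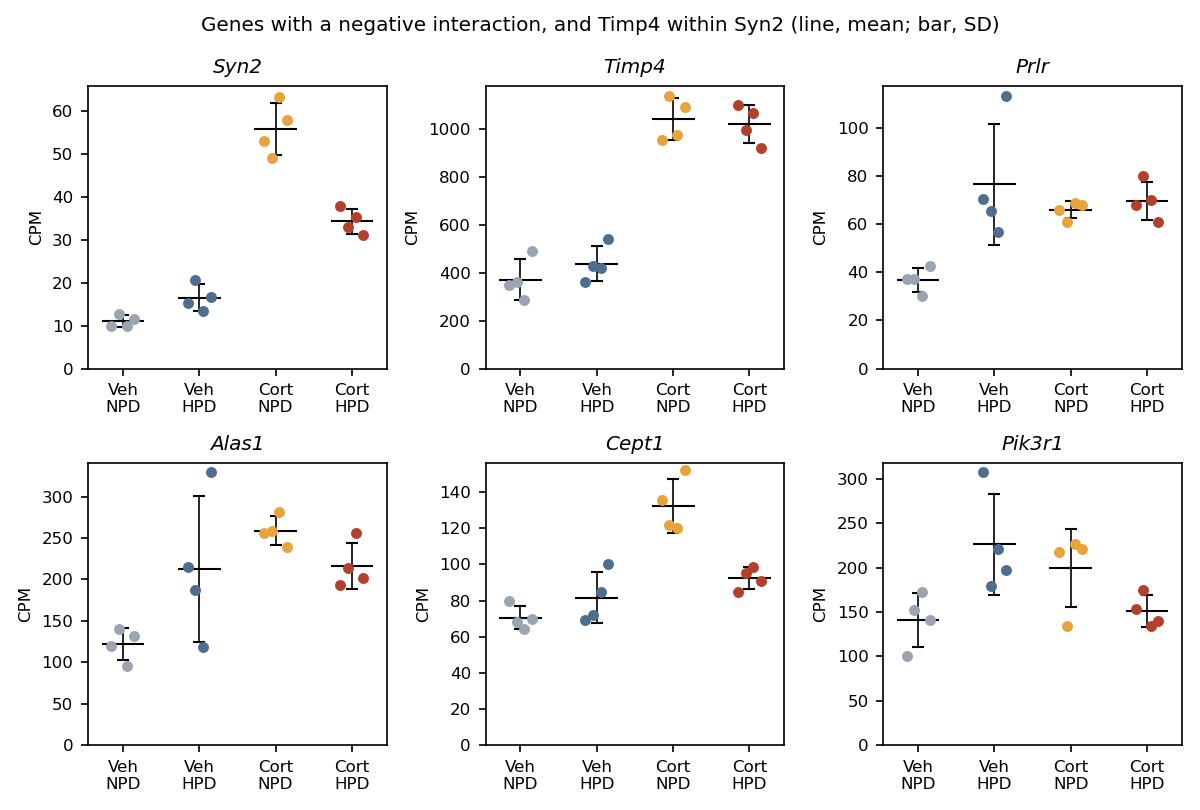
Level in CPM (linear axis from 0) of Syn2, of Timp4, which lies within it on the other strand, and of 4 further genes with a negative interaction in each eWAT library, by group, with the mean as a line and the SD as a bar. The Cort HPD libraries of Syn2 and Cept1 lie below all their Cort NPD libraries, whereas the cort groups of Timp4, Prlr, Alas1 and Pik3r1 overlap.

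Most red blood cell genes rose with cort on the HPD and none passed the test on the NPD, while the adjusted test of the interaction called none of them. All 9 genes of the red blood cell list were tested. On the HPD 7 of them rose with cort, beside 3.46% of all genes tested, and on the NPD 0 rose, beside 4.05%, and 0 fell, and the median response was 1.40 on the HPD and -0.23 on the NPD. The interaction was positive with an unadjusted p under 0.05 for 9 of 9, beside 3.06% of all genes tested, and called for 0. Its median was 1.61, beside 0.02 for all genes tested, and ranged from 1.43 to 1.78 with 1 library left out. Without Cort HPD replicate 4 the 9 genes kept that level, beside 2.57% of all genes tested in that fit, with a median of 1.56. This list was among the 14 marker lists meant for summed levels, and the only marker list whose interaction was read. Since lists were chosen with earlier results of these data known, its counts describe these libraries and give no independent support.

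Hbb-bs, which encodes a beta chain of hemoglobin, read 2515, 4097, 4577 and 2423 CPM in Veh NPD and 3666, 5901, 3253 and 5968 CPM in Veh HPD. It read 2316, 4119, 2503 and 2687 CPM in Cort NPD and 7752, 16434, 9172 and 12208 CPM in Cort HPD. The lowest Cort HPD library was above the highest library of each other group, and the other groups overlapped. The interaction of Hbb-bs was 1.51 (SE 0.43), that of Hbb-bt 1.46 (SE 0.41), and those of the alpha chain genes Hba-a1 and Hba-a2 were 1.61 (SE 0.38) and 1.69 (SE 0.39). The members of each chain pair are near-identical copies, so that their counts are not independent.

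Alas2, the rate-limiting enzyme of heme synthesis in red cell precursors, stood at 16.4, 19.6, 16.2 and 18.9 CPM in Cort NPD and 58.8, 112, 60.8 and 81.0 CPM in Cort HPD. In veh-treated mice it was 15.6 to 30.3 CPM on the NPD and 20.3 to 45.2 CPM on the HPD, below all Cort HPD libraries. Its interaction was 1.73 (SE 0.36), the opposite sign from Alas1 (-1.06). Slc25a37, the mitochondrial iron importer mitoferrin, was not in the list and had the smallest p of all genes that were not called. It read 20.4, 26.5, 18.9 and 22.3 CPM in Cort NPD and 37.0, 61.9, 65.7 and 70.3 CPM in Cort HPD, and 19.1 to 25.2 CPM in the veh libraries. Slc25a37 rose by 1.35 (SE 0.18) on the HPD and had 0.06 (SE 0.18) on the NPD, with an interaction of 1.28 (SE 0.25, adjusted p = 0.10 by edgeR's quasi-likelihood test).

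Bpgm, which makes the hemoglobin ligand bisphosphoglycerate in red cells, averaged 15.9 ± 1.10 CPM in Cort NPD and 39.7 ± 8.44 CPM in Cort HPD (interaction 1.16, SE 0.27). The anion exchanger Slc4a1 was at 0 to 0.445 CPM in Cort NPD and 2.74 to 5.41 CPM in Cort HPD. The summed level of the 9 genes was 3513 to 6424 CPM in Cort NPD and 12570.0 to 25150.0 CPM in Cort HPD, and the part of blood held in the tissue in these values was not tested.

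**Figure D3:**
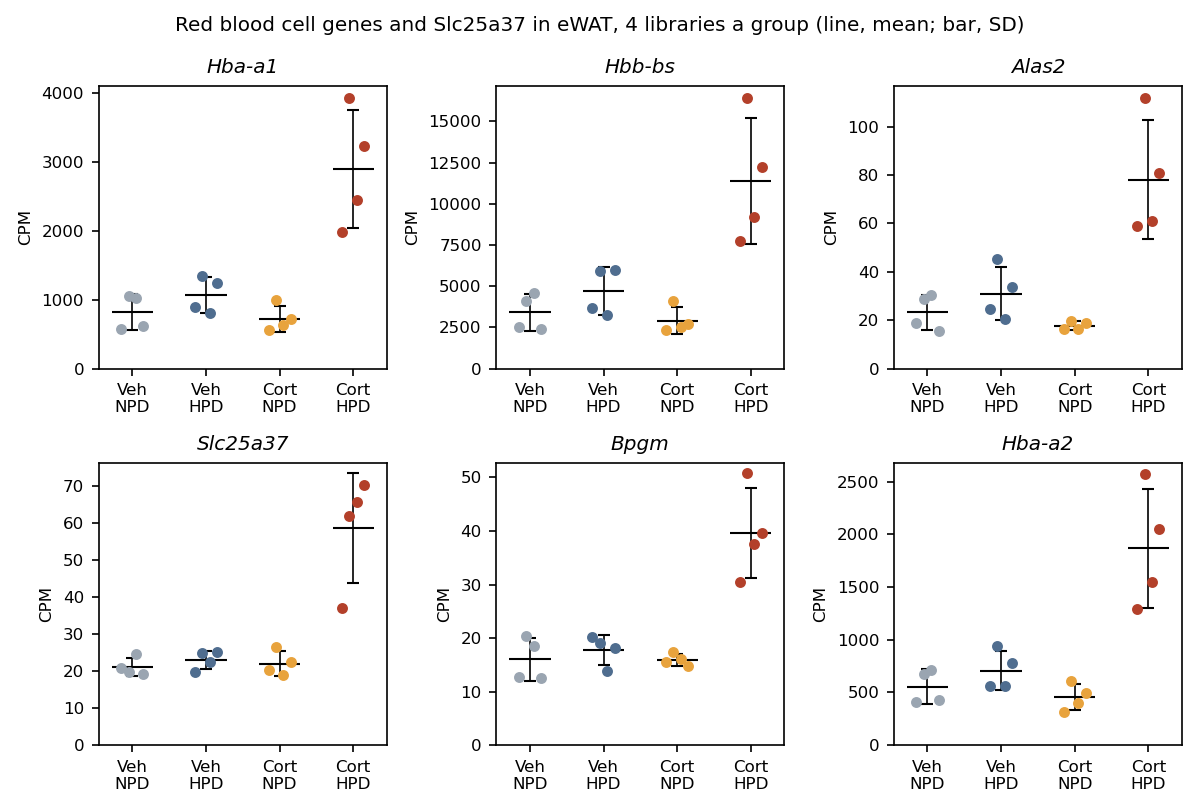
Level in CPM (linear axis from 0) of 5 red blood cell genes and the mitochondrial iron importer Slc25a37 in each eWAT library, by group, with the mean as a line and the SD as a bar. In each panel all 4 Cort HPD libraries lie above all libraries of the other groups.

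The remaining positive genes included cell surface and iron genes. Cd24a, a surface glycoprotein of adipocyte progenitors and immature blood cells, read 10.1, 14.9, 10.4 and 11.2 CPM in Veh NPD and 11.3, 12.8, 6.73 and 6.62 CPM in Veh HPD. Under cort it read 4.96, 8.58, 3.71 and 4.99 CPM on the NPD and 13.4, 17.3, 11.4 and 29.0 CPM on the HPD. The cort groups did not overlap. Cd24a fell by 1.06 on the NPD (adjusted p = 0.030) and had 0.92 on the HPD (adjusted p = 0.069), with an interaction of 1.98 (SE 0.43, adjusted p = 0.35). Without Cort HPD replicate 4, its highest library, that interaction was 1.64. Cd83, a marker of mature dendritic cells and B cells that stabilises class II molecules at the surface, fell by 2.66 on the NPD, from 11.9 ± 6.72 to 1.88 ± 1.08 CPM. On the HPD it was 5.79 ± 0.642 CPM under veh and 5.30 ± 1.17 CPM under cort, and its interaction was 2.53 (SE 0.56). Its cort groups did not overlap.

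Prdm16, a regulator of brown and beige fat, fell by 1.65 on the NPD (7.96 ± 2.91 to 2.54 ± 0.753 CPM) and had 0.23 on the HPD (6.15 ± 1.11 to 7.23 ± 2.18 CPM), with an interaction of 1.88 (SE 0.47). Cidea, a lipid droplet protein abundant in brown fat, had the opposite sign, with -0.44 on the NPD, a fall of 2.64 on the HPD and an interaction of -2.20 (SE 0.81). Hfe, which takes part in iron sensing, in veh-treated mice had a log2 difference of -0.79 between the HPD and the NPD (adjusted p = 0.0054), and stood at 70.3 ± 5.65 CPM on the NPD and 69.0 ± 5.35 CPM on the HPD in cort-treated mice (interaction 0.76, SE 0.18). Orm1, an acute phase protein, averaged 353 ± 38.7 CPM on the NPD and 156 ± 45.4 CPM on the HPD under veh, and 502 ± 39.0 and 394 ± 26.2 CPM under cort. Orm1 rose with cort on both diets, by 0.51 and 1.33 (interaction 0.82, SE 0.21). Atpif1, the inhibitor of the mitochondrial ATP synthase, had -0.39 and 0.33 (interaction 0.72, SE 0.18, or 0.57 without Cort HPD replicate 4). Among the 20 uncalled genes, the cort diet groups did not overlap for 13, beside 6.66% of all genes tested, and the veh diet groups for 11, beside 4.28%, but the genes were chosen on the contrast that holds these groups.

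**Figure D4:**
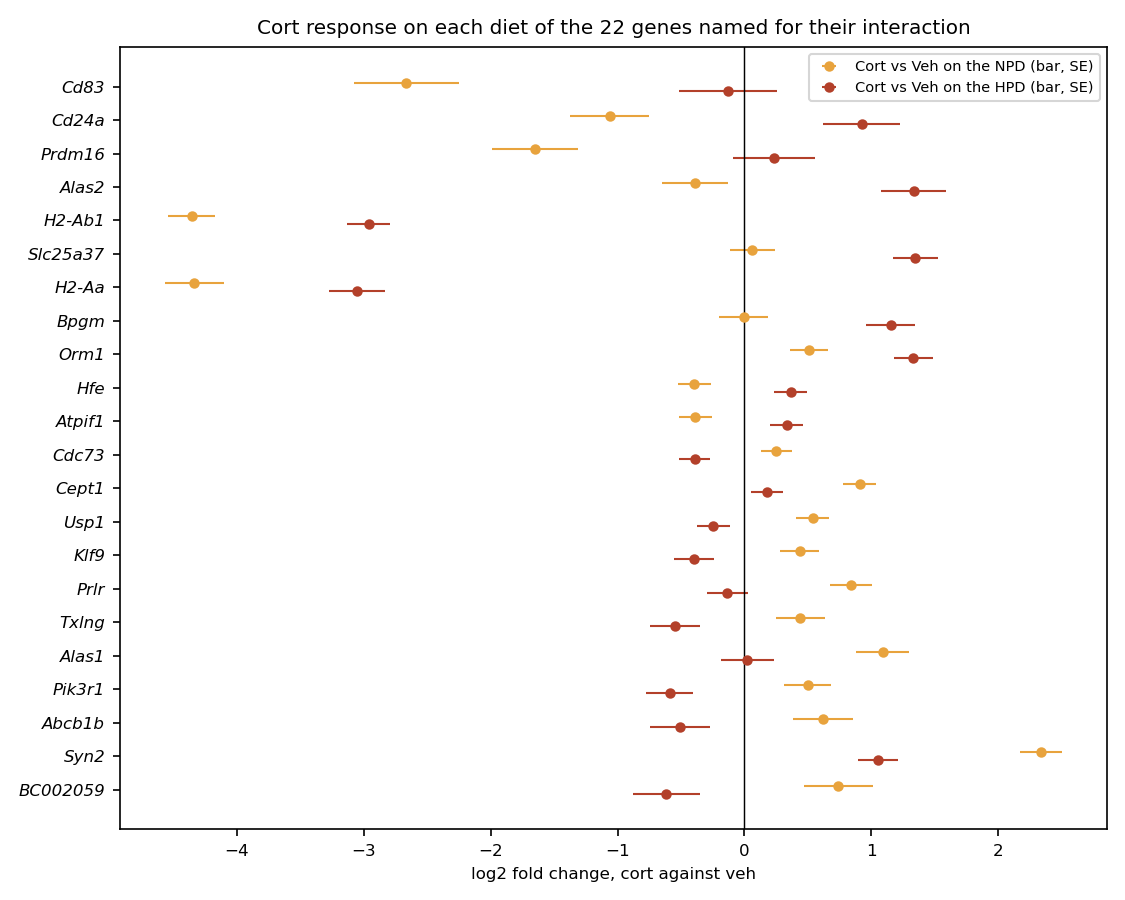
Log2 fold change between cort and veh on each diet for the 2 genes with a called interaction and the 20 genes with the next smallest p, 10 in each direction, with the SE as a bar. H2-Ab1, H2-Aa and Syn2 keep their direction with a smaller size on the HPD, whereas the red cell genes Alas2 and Bpgm stand at -0.39 and -0.01 on the NPD and at 1.33 and 1.15 on the HPD.

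Glucocorticoid receptor targets and clock genes leaned to the negative side. Of 22 tested targets of the receptor, 8 had a positive interaction, beside 52.1% of all genes tested. The median was -0.37, or -0.175 without Veh HPD replicate 2, -0.217 without Veh NPD replicate 3 and -0.595 without Veh NPD replicate 2. At an unadjusted p under 0.05 there were 2 positive and 5 negative genes, beside 3.06% and 2.11% of all genes tested. Without Cort HPD replicate 4 there were 1 and 3. On the NPD 5 rose and 0 fell with cort, beside 4.05% and 3.93% of all genes tested, and on the HPD 4 rose and 2 fell, beside 3.46% and 2.63%. The median log2 response of the 22 targets was 0.0765 on the NPD and 0.147 on the HPD. By fitted signs, 8 were weakened, 6 strengthened and 8 reversed. These values do not show a generally weaker response on the HPD. The phosphatase Dusp1 was on the positive side at 0.83 (SE 0.29). Lcn2, which is also a product of the epididymis, read 19.6 to 32.2 CPM in Cort NPD and 16.2, 17.9, 28.3 and 898 CPM in Cort HPD, so that its interaction of 4.0 (SE 1.67) became 0.48 without Cort HPD replicate 4. The part of epididymal RNA in these values was not tested. The amino acid transporter Slc7a5 behaved alike, with 3.31 (SE 1.44) and 0.72 without that library. Of 18 clock genes, 4 had a positive interaction, beside 52.1% of all genes tested. Their median was -0.36, or -0.116 without Veh HPD replicate 4 and -0.23 without Veh NPD replicate 4. The period gene Per2 had -1.37 (SE 0.53), and the transcription factor Tef had -0.74 (SE 0.33), or -0.30 without Veh HPD replicate 4. No time of day is given in the labels.

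Most metabolic lists had small negative medians. Among 28 tested genes of fatty acid and triglyceride synthesis, 5 had a positive interaction, beside 52.1% of all genes tested, and the median was -0.20. Leaving out replicate 4 of Veh HPD gave -0.0143, replicate 1 gave -0.116 and replicate 2 gave -0.304. At an unadjusted p under 0.05 there were 3 negative genes, beside 2.11% of all genes tested, or 1 without Cort HPD replicate 4. The 3 genes were the acetyl-CoA carboxylase Acacb at -0.97 (SE 0.35), the NADPH-producing malic enzyme Me1 at -0.85 (SE 0.37, or -0.51 without Veh HPD replicate 4) and the phosphatidate phosphatase Lpin1 at -0.76 (SE 0.33). Among 29 tested genes of glycolysis and gluconeogenesis, 10 rose and 1 fell on the NPD, beside 4.05% and 3.93% of all genes tested. On the HPD 7 rose, beside 3.46%. A positive interaction was found for 15 (51.7%), beside 52.1% of all genes tested (median 0.03, or -0.21 without Cort HPD replicate 4). The insulin-responsive glucose transporter Slc2a4 rose by 1.14 on the NPD and had 0.44 on the HPD (interaction -0.70, SE 0.29, or -0.35 without Veh HPD replicate 4). The phosphofructokinase Pfkl rose by 0.82 and had 0.17 (interaction -0.66, SE 0.21, or -0.74 to -0.44 with 1 library left out). Pyruvate carboxylase, Pcx, rose by 0.54 and had -0.01 (interaction -0.55, SE 0.21, or -0.67 to -0.37 with 1 library left out). In insulin receptor signalling, 7 of 25 genes had a positive interaction (median -0.12), beside 52.1% of all genes tested. The receptor Insr had -0.41 (SE 0.18).

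Among 35 tested genes of amino acid catabolism and the urea cycle, 7 had a positive interaction, beside 52.1% of all genes tested. The median was -0.18, or -0.0399 and -0.278 when Veh HPD replicates 4 and 1 in turn were left out. At an unadjusted p under 0.05 there were 1 positive and 3 negative genes, beside 3.06% and 2.11% of all genes tested. Prodh, the first enzyme of proline breakdown, averaged 24.5, 46.5, 69.8 and 73.1 CPM in that order of groups. It rose by 1.51 on the NPD and had 0.65 on the HPD (interaction -0.86, SE 0.29, or -0.52 without Veh HPD replicate 4). The alanine transaminase Gpt2 had -0.56 (SE 0.21) and the glutamine synthetase Glul -0.56 (SE 0.26, or -0.32 without Veh HPD replicate 4), while Gamt, of creatine synthesis, had 0.46 (SE 0.22). Of 34 genes of the mitochondrial respiratory chain, 8 had a positive interaction, beside 52.1% of all genes tested. Their median of -0.11 ranged from -0.178 without Veh HPD replicate 3 to 0.0642 without Veh HPD replicate 4. No gene of these lists had a called interaction.

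**Figure D5:**
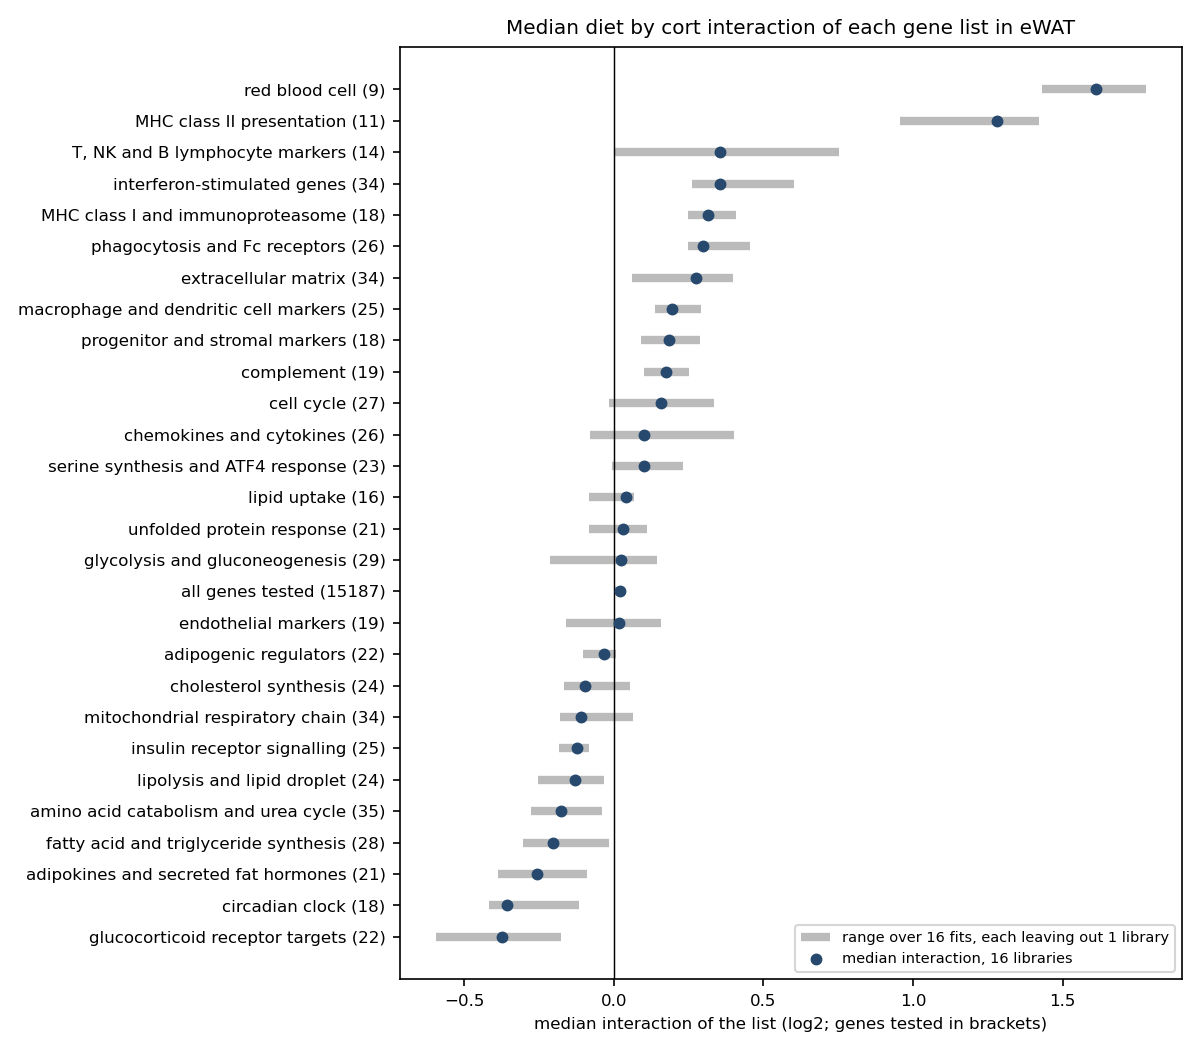
Median interaction (log2) of each gene list in eWAT, with the number of genes tested in brackets and, in grey, the range when each of the 16 libraries is left out in turn. The red blood cell and MHC class II lists lie at 0.957 or above throughout, the other medians lie between -0.373 and 0.355, and all genes tested have 0.02.

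Liver libraries of the same 4 groups gave a check of whether these interactions differed between tissues. The interaction was called for 1 of 12282 genes in liver (0.00814%), or 14 of 12391 without liver Veh HPD replicate 4 (0.113%), whose median correlation with the other liver libraries was 0.895. H2-Ab1 in liver averaged 38.4 ± 18.3, 31.0 ± 11.9, 1.93 ± 0.462 and 1.76 ± 0.560 CPM in that order of groups, with an interaction of 0.16, so that eWAT exceeded liver by 1.23 (SE 0.54, adjusted p = 0.44). In liver, 5517 of the 11555 genes tested in both tissues had a positive interaction (median -0.024). At an unadjusted p under 0.05, 587 of them were positive and 854 negative. Of the 8 MHC class II members tested in liver, 4 had a positive interaction (median 0.06) and 0 had an unadjusted p under 0.05. Neither count stood apart from that of all genes. Of 8 red blood cell genes tested in liver, 7 had a positive interaction (median 1.23), 5 with an unadjusted p under 0.05, beside 5.08% of genes tested in both tissues. Interferon-stimulated genes had a liver median of 1.0, against 0.354 in eWAT, with 21 of 33 positive at that level. MHC class I genes had 0.623 against 0.316. Matrix genes had -1.31 against 0.275, with 23 of 31 negative at that level in liver, beside 854 of 11555 genes. These values include liver Veh HPD replicate 4, and differences of lists between tissues were not tested. Bpgm had 1.16 in both tissues, and Hbb-bs had 1.51 in both, whereas Alas2 had -0.06 in liver. By edgeR's quasi-likelihood test on both tissues together, the interaction differed between eWAT and liver for 0 of 15940 genes, with 1625 at an unadjusted p under 0.05. The latter is more than 5% of these genes, so that 0 called genes does not show that the interaction was alike in both tissues.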

How the data were processed

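The deposited table held raw counts of reads per Ensembl gene, made by the authors from QuantSeq 3′ libraries of whole eWAT pieces and liver. The submitters' processing notes name GRCm38 (mm10), R 4.0.3 and limma, and the aligner, counting program and strand setting are not given in the sources used here. All 47643 genes of the table entered, and genes were kept by filterByExpr (minimum count 10, minimum total 15). TMM factors (0.928 to 1.06) and edgeR 4.0.16 quasi-likelihood tests with robust estimation were applied to the counts of the 16 eWAT libraries, fitted together (R 4.3.3, statmod 1.5.0). The threshold was a Benjamini-Hochberg adjusted p of 0.05 over all genes tested, and CPM used the TMM-scaled totals, except for marker sums, which used plain totals. The biological coefficient of variation was 0.372. Of 24 pairs of libraries of the same group, 0 held identical counts.

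Named genes were those called, the 10 in each direction with the smallest p as described above, up to 4 members of each list discussed together with members of the complex of a called gene, and 5 genes that check the treatment labels. Some members are not reported here. Cidea and Slc7a5 were named after their values were seen. The members and lists were chosen with earlier results of these data known. Promoters of RefSeq (GRCm38.p6) were matched by symbol. The test was checked on simulated counts. Alternatives were RLE factors, plain totals, no filter, DESeq2 1.42.0, limma 3.58.1 voom with and without quality weights, edgeR without robust estimation, a replicate block and leaving out each library.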

Additional observations from a re-analysis of the deposited data

Results flagged for a closer look

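H2-Ab1 and Syn2 are given because their cort response differed between the diets by the test of the interaction itself, at 1.40 and -1.28 (log2).

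Single libraries stood far from the other 3 of their group in 22 of 396 groups of 4 examined, and chance gives about 1 in 20. Cort HPD replicate 4 was high for the epididymis and testis marker sum (32020 CPM against 5.74 to 24.4), Lcn2 (898 CPM against 16.2 to 28.3), Slc7a5 (84.6 against 1.68 to 8.04), H2-DMb2 (22.4 against 0 to 1.73), H2-DMa (14.9 against 4.74 to 6.38) and Atpif1 (123 against 82.9 to 88.5). Whether the epididymal RNA of this library accounts for the other values was not tested. Veh HPD replicate 4 was high for the adipocyte marker sum (55700 CPM against 44220 to 45770), Slc2a4 (164 against 72.6 to 88.1), Pfkl (75.1 against 42.8 to 47.6) and Tef (173 against 67.4 to 77.5). Veh HPD replicate 3 was high for H2-Aa (538 CPM against 334 to 364), Hfe (63.2 against 49.4 to 51.4) and Fcer1g (57.7 against 50.3 to 51.2). In Veh NPD, replicate 3 was high for Prdm16 (12.3 CPM against 6.18 to 6.96) and the endothelial marker sum (874 against 451.5 to 491.9), and replicate 4 was low for Irf9 (27.2 against 37.7 to 38.5). In Cort NPD, replicate 1 was high for H2-DMb1 (6.11 CPM against 4.0 to 4.26), replicate 2 was high for the epididymis and testis marker sum (19 against 6.29 to 6.76) and for Ciita (0.291 against 0) and low for Pik3r1 (134 against 217 to 227), and replicate 4 was high for the T and NK cell marker sum (6.76 against 2.22 to 2.95). Serping1 was low in Cort HPD replicate 2 (436 CPM against 519 to 532).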

How the results depend on the processing

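The interaction of the genes named kept its direction under every alternative run, except that of Nr3c1 (0.02, from -0.0655 to 0.133). The number of genes with a called interaction was 2 with TMM or RLE factors, 4 with no filter on low counts (Cd24a, H2-Ab1, Slc25a37 and Syn2), 14 by DESeq2, 0 with plain library totals, 0 by limma voom with or without quality weights, and 0 by edgeR without robust estimation. The adjusted p of H2-Ab1 and Syn2 was 0.0765 and 0.091 with plain totals and 0.0577 for both without robust estimation. With each library left out in turn, 0 to 6 genes were called, and 0 without Cort HPD replicate 4, while 720 to 949 had an unadjusted p under 0.05. With no filter, 1514 genes had an unadjusted p under 0.05. Genes called for cort on the HPD numbered 581 (without Veh HPD replicate 1) to 1265. The interaction differed between eWAT and liver for 0 to 4 genes, with 1 without eWAT Cort HPD replicate 4 and 4 without liver Veh HPD replicate 3. The cause of these shifts was not tested. List medians moved beyond their spread in 6 of 416 such fits.

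With the replicate number as a block, 9 genes were called (Alas2, Cd24a, H2-Ab1, Hba-a1, Hba-a2, Hbb-bs, Hbb-bt, Slc25a37 and Syn2). By their labels these libraries share only a number. Over all genes, 1 of 24 same-numbered pairs had a correlation of deviations over 0.1 (range -0.115 to 0.253), and 4 of 16 libraries matched their own number best. A correlation over all genes does not test a block that acts on few genes. The red blood cell marker sum was highest in replicate 2 in Veh HPD (9860 CPM), Cort NPD (6424 CPM) and Cort HPD (25150 CPM), and in replicate 3 in Veh NPD (7374 CPM). Whether the numbers mark a block was not tested for these genes.

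With 4 libraries a group, the 95% interval had a half-width over 1 log2 unit for 40.0% of genes, and the part of depth in it was not tested.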
